A study of Harpegnathos saltator with 75 samples.

Results

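The comparison described here is the ovary of Harpegnathos saltator workers at day 10 against the ovary of workers at day 3, counted from the start of a dueling tournament. Its members are 10 libraries of 75 in the series, 5 per day, taken by tissue, caste and day from the sample labels. Transcripts of the ovary, the fat body and the brain without its visual part were sequenced as polyadenylated RNA at day 0, day 3 and day 10. At day 3 and day 10 the ants were prospective workers or prospective gamergates. The ovary groups used were day 10 workers, day 10 gamergates, day 3 workers, day 3 gamergates and day 0 ants, which are labelled as workers, with 5 libraries each. The labels give no age, no treatment and no genotype for these ants. Nor do they say that each library of a group is a different ant. The p-values therefore reflect how far the libraries of a group differ, which may be technical. In the edgeR fits all groups of a tissue share an estimate of the spread for each gene. The edgeR p-values of the worker comparison thus also carry the spread of the gamergate and day 0 libraries, except where the worker groups were fitted alone.

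Harpegnathos saltator is a ponerine ant whose workers can mate and lay eggs. When a colony has lost its reproductive, workers duel with their antennae, the winners become egg-laying gamergates, and the others stay workers. An insect ovary is made of ovarioles, in which germ cells, nurse cells and the follicle cells around them form the egg, while the fat body makes most of the yolk protein and lies close to the ovary in the abdomen. The question here is how the ovary of the ants that stayed workers differed between the later and the earlier sampling day.

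The deposited table pairs none of its 20659 gene identifiers with a gene name, and 0 of them matched the RefSeq table used for names. No gene could therefore be described by function, and groups of genes were formed from the tissue in which they were enriched at day 0. The 10 worker ovary libraries held 737818 to 3558381 reads assigned to genes, with a median of 1356371. Day 10 worker libraries averaged 1511000 ± 1167290 assigned reads and day 3 worker libraries 1413360 ± 241869 (SD, n = 5 each). Genes with at least 5 reads numbered 8921 to 11240 at day 10 and 9060 to 9746 at day 3. Reads that fell in no gene made up 36.4% to 39.7% of the counted reads at day 10 and 35.8% to 41.7% at day 3. All day 10 worker libraries were run on lane 1 of one flow cell, and all day 3 worker libraries on lane 1 of another, so day and flow cell cannot be told apart from these 10 libraries.

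Among the 10 libraries, 2 stood apart from the rest of their group. Principal component 1 of the 25 ovary libraries, which held 44.7% of the variance, placed day 3 worker library 4 at -53.9, against 12.7 to 24.3 for the other 4 day 3 worker libraries. The day 10 gamergate libraries numbered 1 to 4 lay at -71.4 to -61.4 on this axis, and day 3 gamergate library 1 at -53.6. For 1459 genes day 3 worker library 4 was more than 2-fold away from the mean of the other 4 libraries of its group, while for each of those 4 this held for 422 to 611 genes. Day 10 worker library 5 lay at 19.8 on component 1, inside the range of the day 3 workers, while day 10 workers 1, 2, 3 and 4 lay at 51.6, 53.1, 60.3 and 38.9. It was more than 2-fold away from the mean of the other 4 day 10 libraries for 1065 genes, against at most 596 genes for each of the others. Results that rest on these libraries are given with and without them. One gamergate library, number 5 of day 10, also stood apart, at 21.7.

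**Figure D1:**
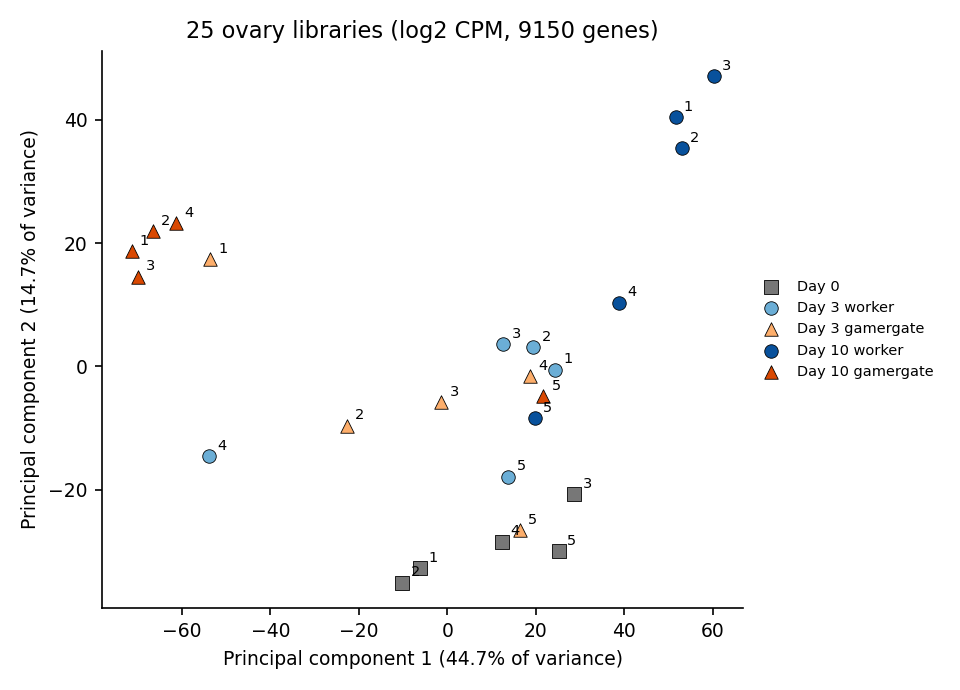
Principal components 1 and 2 of log2 CPM (counts scaled to a library of 1e6 reads) over 9150 genes in 25 ovary libraries; each point is a library, marked with its replicate number, and colours give day and caste. Day 10 worker libraries 1, 2 and 3 sit at the upper right, day 10 worker library 5 among the day 3 workers, and day 3 worker library 4 at the left, on the side of most day 10 gamergates.

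Of 9150 genes tested in the ovary, 905 were higher and 901 lower in day 10 workers than in day 3 workers (edgeR quasi-likelihood test, Benjamini-Hochberg adjusted p below 0.05). These are 9.89% and 9.85% of the genes tested, or 19.7% together. The numbers in both directions were close to equal in this fit, but 419 were higher and 218 lower in a fit of the 2 worker groups alone. Among the higher genes the median log2 fold change was 0.99, and 448 exceeded 2-fold. Among the lower genes the median was -0.60, and 99 exceeded 2-fold. Changes under 1.5-fold made up 189 of the higher genes and 414 of the lower ones. The median level, averaged over all 25 ovary libraries, was 51.4 CPM for the higher and 79.4 CPM for the lower genes. More than 4-fold changes were found for 105 higher and 39 lower genes. The median over all genes tested was -0.04.

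The number of genes called depended on single libraries. Without day 3 worker library 4, 426 genes were higher and 413 lower, 9.02% of the 9297 genes then tested. Of the 905 higher genes 405 were called again there, and of the 901 lower genes 393. All 905 higher genes kept their sign there, as did 899 of the 901 lower ones, and 0 genes were called in opposite directions. The genes were chosen on libraries that also enter that fit, so a kept sign is in large part built in. Leaving out day 10 worker library 1, 2 or 3 gave 1129, 953 and 825 called genes in all, and leaving out day 10 worker library 5 gave 2780. The fit of the 2 worker groups alone called 637 genes in all. With both day 3 worker library 4 and day 10 worker library 5 left out, 908 genes were higher and 888 lower.

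Day 3 worker library 4 often held the extreme value among the day 3 workers. It had the highest level of the 5 for 534 of the 901 lower genes, and the lowest for 564 of the 905 higher genes. The other 4 libraries were the highest for 70 to 132 of the lower genes and the lowest for 45 to 155 of the higher ones. The largest fall among called genes, picked out after its values were seen, rested on this library alone. That gene had 0.586, 0.752, 0, 0.905 and 0 CPM in day 10 workers 1 to 5, against 0, 0, 0.96, 1270 and 0 CPM in day 3 workers 1 to 5. All libraries but 1 were thus at or near 0 on both days. Its fitted log2 difference was -8.72 with all libraries (edgeR adjusted p = 0.0387) and 1.30 without day 3 library 4 (edgeR adjusted p = 0.916).

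The day 10 workers were not alike among themselves. Each worker library was placed between the day 3 mean (0) and the day 10 mean (1) on genes called without that library, so that it had no part in choosing them. Day 10 workers 1, 2 and 3 had positions of 1.05, 1.18 and 1.29. Day 10 worker 4 lay at 0.563 and day 10 worker 5 at 0.302. The day 3 workers 1, 2, 3 and 5 lay at 0.315, 0.419, 0.255 and 0.246, and day 3 worker 4 at -0.253. Day 10 worker 5 thus lay below 2 of the day 3 workers, and the days overlapped. With day 3 worker 4 also left out, day 10 workers 1 to 5 lay at 0.989, 1.13, 1.27, 0.515 and 0.281, and day 3 workers 1, 2, 3 and 5 at 0.15, 0.408, 0.217 and 0.276. The genes behind each position differed, from 819 to 2738 genes with all libraries.

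**Figure D2:**
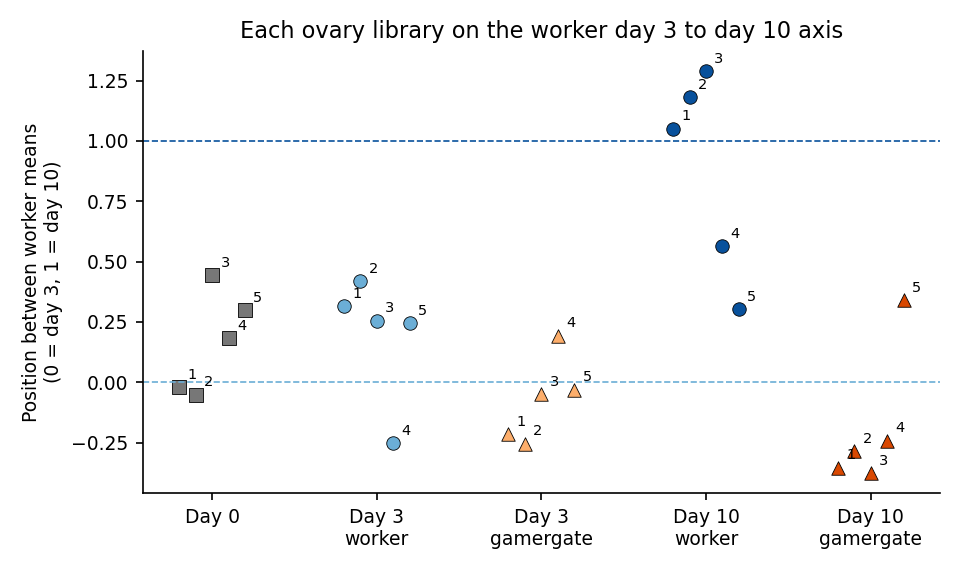
Position of each of the 25 ovary libraries between the mean of the day 3 workers (0, lower dashed line) and of the day 10 workers (1, upper dashed line) over genes called between these groups; worker libraries of day 3 and day 10 were left out of the fit that chose their genes, and numbers are replicates. Day 10 workers 1, 2 and 3 lie above 1, day 10 worker 5 at 0.302 among the day 3 workers, and 4 of 5 day 10 gamergates lie at -0.376 to -0.242.

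The same order appeared gene by gene, on the libraries that chose the genes and thus as a description only. Of the 905 higher genes, day 10 workers 1, 2 and 3 lay above all day 3 workers for 92.0%, 96.0% and 97.3%, day 10 worker 4 for 73.9% and day 10 worker 5 for 45%. Of the 901 lower genes, day 10 worker 5 lay below all day 3 workers for 46.4%, and the other 4 for 83.5% to 94.1%. Over all genes tested, the 5 day 10 libraries lay above the 5 day 3 libraries for 321 genes (3.51%) and below them for 385 genes (4.21%). The median SD of log2 CPM over genes was 0.31 in day 10 workers and 0.35 in day 3 workers, or 0.28 in day 3 workers without library 4.

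Genes were grouped by the tissue in which they were enriched at day 0, and the fat body and brain groups also serve as markers of the other tissues sampled. Enriched meant a log2 fold above 3 against each of the other tissues (edgeR adjusted p below 0.05) and a mean of at least 10 CPM there. Ovary-enriched genes were called lower more often than higher at day 10. Of 165 such genes, all tested, 25 (15.2%) were lower, 8 (4.85%) higher and 132 not called, with a median log2 fold change of -0.48. The shares over all genes tested were 9.85% lower and 9.89% higher, with a median of -0.04. Leaving out day 3 worker library 4 left 17 lower and 2 higher ovary-enriched genes (median -0.33), against 4.44% and 4.58% of all genes. The count of lower genes was 15, 14 and 14 without day 10 worker 1, 2 or 3, and 57 without day 10 worker 5.

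Fat-body-enriched genes were called higher more often than lower at day 10. Of 373 such genes 271 were tested in the ovary, and 84 (31.0%) were higher, 6 (2.21%) lower and 181 not called. Their median log2 fold change was 0.50. Leaving out day 3 worker library 4 gave 41 higher and 2 lower of 281 tested (median 0.56). There were 45, 51 and 50 higher without day 10 worker 1, 2 or 3. Of the 271 genes 269 were also tested in worker fat body, where 8 were higher and 5 lower at day 10 (median 0.09). In the median of these 269 genes, the CPM in the ovary was 16.3% of that in worker fat body at day 10, against 14.3% at day 3. For the 84 higher genes it was 12% at day 10 and 3.93% at day 3, a rise that the choice of called genes favours. In worker fat body itself, 0 of these 84 genes were called higher and 2 lower from day 3 to day 10 (edgeR adjusted p below 0.05; 1.91% and 1.47% of all genes tested there), with a median of 0.10. Among the 84 genes the ovary median was 1.81, a value that the choice of called genes fixes to be high. How far fat body tissue in the samples takes part in these values was not tested.

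Brain-enriched genes were also called higher more often than lower. Of 715, 180 were tested in the ovary, and 49 (27.2%) were higher, 5 (2.78%) lower and 126 not called, with a median log2 fold change of 0.69. Leaving out that day 3 library gave 27 higher and 3 lower of 197 (median 0.66). There were 30, 32 and 23 higher without day 10 worker 1, 2 or 3, 76 without day 10 worker 5 and 31 without day 3 worker 5. In worker brains 0 of the 180 genes were called in either direction, with a median of -0.01. Over all 9886 genes tested in worker brains only 1 (0.0101%) was called, so this 0 does not set the group apart. The 8534 genes in no enriched group held 764 higher (8.95%) and 865 lower genes (10.1%), with a median of -0.05. In bulk tissue, fewer cells of a type and less RNA per cell cannot be told apart, so none of these values gives a number of cells.

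The share of assigned reads in each group shows which libraries carried these differences. Ovary-enriched genes took 2.79%, 2.68%, 2.51%, 4.10% and 4.73% of reads in day 10 workers 1 to 5, against 4.08%, 5.30%, 4.61%, 5.36% and 3.61% in day 3 workers 1 to 5. Day 10 workers 1, 2 and 3 lay below all day 3 workers, and day 10 workers 4 and 5 lay among them. Fat-body-enriched genes took 4.40%, 4.13%, 3.41%, 2.06% and 2.41% at day 10, against 2.03%, 2.66%, 1.88%, 2.11% and 2.22% at day 3. Again day 10 workers 1, 2 and 3 were outside the day 3 range, here above it. Brain-enriched genes took 0.756%, 0.648%, 0.851%, 0.509% and 0.397% at day 10, against 0.388%, 0.382%, 0.407%, 0.354% and 0.331% at day 3. Here 4 of 5 day 10 workers lay above all day 3 workers.

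These shares were tested together with other per-library measures, 8 in all, and none passed after adjustment. A single measure with complete separation of the days would reach an adjusted p of 0.0635 here, so the adjusted values do not show that the shares were alike. Ovary-enriched genes took 3.36% ± 0.992 of reads at day 10 and 4.59% ± 0.762 at day 3 (SD, n = 5 each; two-sided exact permutation p = 0.0714, adjusted 0.19). Fat-body-enriched genes took 3.28% ± 1.03 at day 10 and 2.18% ± 0.296 at day 3 (exact permutation p = 0.0714, adjusted 0.19). Brain-enriched genes took 0.632% ± 0.183 at day 10 and 0.373% ± 0.0301 at day 3 (exact permutation p = 0.0159, adjusted 0.127). The smallest p that 5 against 5 libraries allow is 0.00794. Shares of the most abundant gene and of the 10 most abundant genes, the number of genes detected, the share of reads in no gene and the number of assigned reads each had an adjusted exact permutation p of 0.984. Without day 3 worker library 4 the lowest adjusted exact permutation p of the 8 was 0.339, where 5 against 4 libraries allow no p below 0.0159, or 0.127 for a single measure after adjustment.

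**Figure D3:**
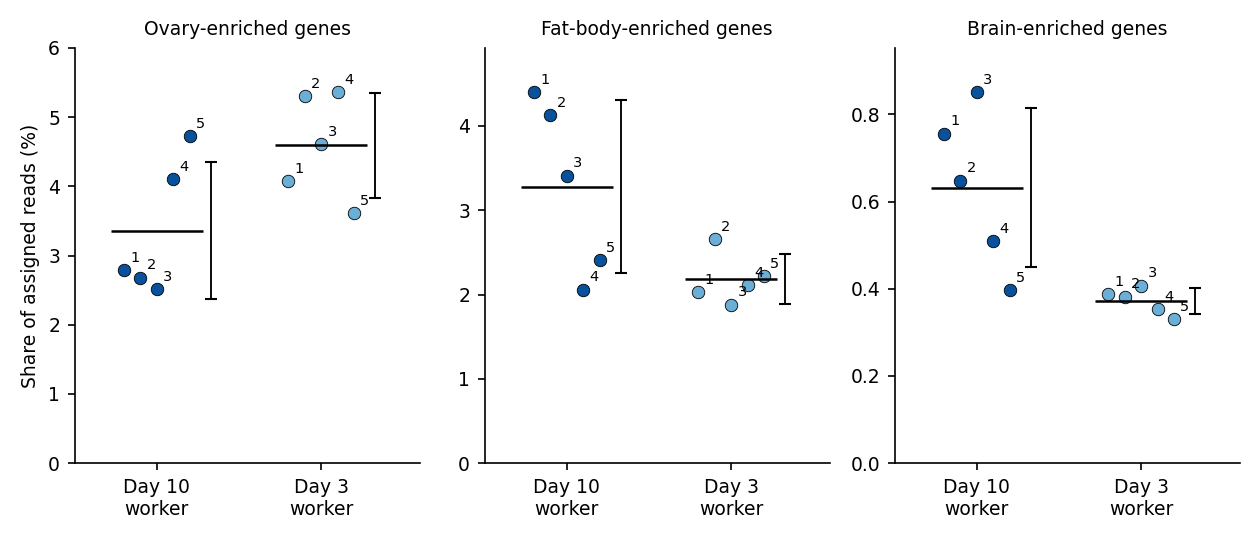
Share of assigned reads (%) in genes enriched at day 0 in the ovary (165 genes), the fat body (373) and the brain (715), in each day 10 worker (left) and day 3 worker (right) ovary library; points are libraries with their replicate number, horizontal lines are means and bars are SD (n = 5). Day 10 workers 1, 2 and 3 lie apart from the day 3 workers in all 3 panels, while day 10 worker 5 lies within the day 3 range for ovary, fat body and, at 0.397%, brain genes.

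Calls were also counted by expression level. Genes were split by mean level over all ovary libraries into 3 classes of 3050. In the lowest class (median 13.0 CPM), 11.9% were higher and 3.87% lower, with medians of 1.43 and -0.98 among the called genes. In the middle class (median 51.4 CPM) 7.90% were higher and 12.8% lower, with medians of 0.92 and -0.61. In the top class (median 163 CPM) 9.84% were higher and 12.9% lower, with medians of 0.57 and -0.52. These medians are of called genes only, and weakly expressed genes need a larger change to be called, so their order across the classes is no result. Of the 100 genes with the highest levels in worker ovaries (794 CPM or more), 13 were higher and 10 lower. These lay near the shares over all genes tested, 9.89% and 9.85%, and were counted with all libraries only. Among called genes, 0 averaged at least 10 CPM at day 10 and under 1 CPM at day 3, and 7 showed the opposite. A single library can carry such a mean. The 7 include the gene with the largest fall, which reached 1270 CPM in day 3 worker 4 alone. By single libraries, 5 gene models had 0 reads in all 5 day 3 workers and at least 1 in each of the 5 day 10 workers. The opposite held for 1 gene model.

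Over all 9150 genes tested, the days did not overlap for 321 higher (3.51%) and 385 lower genes (4.21%). Of these, 142 higher and 42 lower genes were also called, changed more than 2-fold and averaged at least 10 CPM on the higher day. For the rise, the gene with the largest fold change and the gene with the highest level are given. For the fall, 1 gene had both, and the gene with the next fold change is given with it. All 4 are described by identifier alone. In the fit of the 2 worker groups alone, HSALG008004.2 was still called (log2 fold change 1.43, edgeR adjusted p = 0.0253). HSALG000764.2, HSALG011967.1 and HSALG003655.2 did not pass the count filter there and were not tested. Their tests in the main fit rest on a filter that also counted the gamergate and day 0 libraries.

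HSALG008004.2 had the highest level among the rising genes. It was at 1550, 1370, 1350, 544 and 716 CPM in day 10 workers 1 to 5, against 513, 484, 457, 247 and 364 CPM in day 3 workers 1 to 5. The lowest day 10 value lay above the highest day 3 value, and day 10 workers 4 and 5 were the lowest of their day. It averaged 1106 ± 445 CPM at day 10 and 413 ± 108 CPM at day 3 (SD, n = 5 each), a log2 fold change of 1.42 with an SE of 0.25 (edgeR adjusted p = 0.00154). It was 1.28 with day 3 worker library 4 left out (edgeR adjusted p = 0.00578). Day 0 ovaries had 348 ± 58.9 CPM. In gamergate ovaries it was at 547 ± 179 CPM at day 10 and 390 ± 63.8 CPM at day 3 (log2 fold change 0.49, edgeR adjusted p = 0.241). The difference between the changes of workers and gamergates was 0.94 (edgeR adjusted p = 0.0617). Worker brains had higher levels, with 1757 ± 303 CPM at day 10 and 1711 ± 204 CPM at day 3, and worker fat bodies had 631 ± 236 CPM at day 10 and 590 ± 144 CPM at day 3.

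HSALG000764.2 had the largest rise of these genes, and of all called genes. It was at 44.9, 27.1, 13.7, 4.53 and 3.41 CPM in day 10 workers 1 to 5, against 1.43, 0, 1.92, 3.40 and 0 CPM in day 3 workers 1 to 5. The days did not overlap, but day 10 worker 5 exceeded day 3 worker 4 by little. It averaged 18.7 ± 17.4 CPM at day 10 and 1.35 ± 1.43 CPM at day 3 (SD, n = 5 each), a log2 fold change of 3.93 with an SE of 1.19 (edgeR adjusted p = 0.0265). It had 207 reads at day 10 and 9 at day 3, a ratio of pooled CPM of 22.4 with an exact binomial 95% interval of 11.6 to 49.6. Such intervals cover counting error only. The call ended without day 10 worker 1 or 2 or day 3 worker 5 (edgeR adjusted p = 0.0918, 0.0552 and 0.0606) and without a filter on low counts (0.0552). With flow cell as a term it was fitted at 1.37 on the log2 scale (edgeR adjusted p = 0.913). The call held with day 3 worker library 4 left out, at 4.71 (edgeR adjusted p = 0.0472). The fat body of the workers differed the same way, with 325, 486, 243, 88.2 and 105 CPM at day 10 against 7.24, 23.6, 1.55, 1.71 and 0.784 CPM at day 3 (a log2 difference of 4.96 with an SE of 0.89, edgeR adjusted p = 0.00491). In both tissues the day 10 libraries numbered 4 and 5 were the lowest of their day. The part of fat body RNA in the ovary values of this gene was not tested. In gamergate ovaries it was also higher at day 10, with a median of 84.9 CPM and a range of 1.42 to 224, against 0 to 2.70 CPM at day 3. The difference between the castes was -1.56 (edgeR adjusted p = 0.568).

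HSALG011967.1 had the largest fall and the highest level among the 42 falling genes. It was at 0.880, 0.752, 0, 0 and 0 CPM in day 10 workers 1 to 5, against 948, 15.4, 3.84, 3.40 and 28.2 CPM in day 3 workers 1 to 5. Day 10 workers were thus near 0, and the day 3 workers spread widely, with worker 1 far above the rest. It was fitted at -8.39 on the log2 scale with an SE of 2.30 (edgeR adjusted p = 0.0179). This was -8.71 with day 3 worker library 4 left out (edgeR adjusted p = 0.0238). Without day 3 worker 1 it was -4.52 (edgeR adjusted p = 0.137), so the call rested on that library. Over 4 reads at day 10 and 1413 at day 3, the ratio of pooled CPM was 363 in favour of day 3, with an exact binomial interval of 141 to 1330. Day 0 ovaries were near 0, at 0.265 ± 0.365 CPM. In gamergates the order was the opposite, with 2.12 to 2500 CPM at day 10 (median 1150) and 0 to 2.09 CPM at day 3. The worker change minus the gamergate change was -18.72 (edgeR adjusted p = 0.00420). That difference includes day 3 worker 1 and is not given without it. In worker fat bodies HSALG011967.1 was at 0 to 0.767 CPM at day 10, against 592, 22.9, 1180, 0.569 and 6.27 CPM at day 3. The log2 difference of -11.26 there did not pass (edgeR adjusted p = 0.10).

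HSALG003655.2 had the next fall among the 42 falling genes. It was at 0.586, 0.752, 0, 1.81 and 3.41 CPM in day 10 workers 1 to 5, against 9.99, 6.68, 15.4, 516 and 5.97 CPM in day 3 workers 1 to 5. The days did not overlap, and library 4 of day 3 held 759 of the 810 day 3 reads. It was fitted at -6.56 on the log2 scale with an SE of 2.03 (edgeR adjusted p = 0.0295), but at -2.97 with that library left out (edgeR adjusted p = 0.369). The call also ended without day 10 worker 1, 2 or 3 (edgeR adjusted p = 0.0779, 0.0702 and 0.0674) and without a filter on low counts (0.0515). Day 0 ovaries had 2.15 to 19.6 CPM. Gamergate ovaries had 8.50 to 758 CPM at day 10 (median 643) and 5.74 to 463 CPM at day 3 (median 25.8). The worker change minus the gamergate change was -8.70 (edgeR adjusted p = 0.0186). That difference includes day 3 worker library 4 and is not given without it.

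**Figure D4:**
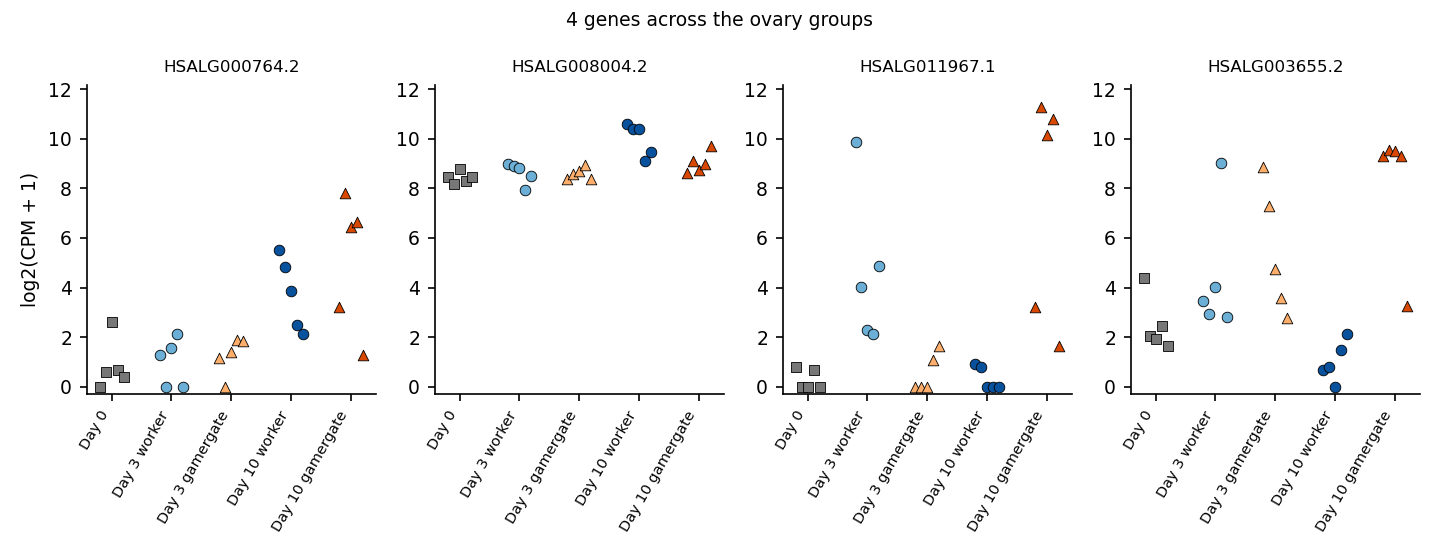
Level of 4 genes, as log2(CPM + 1), in each ovary library by day and caste (n = 5 per group; circles are workers, triangles gamergates and squares day 0). HSALG000764.2 and HSALG008004.2 are higher in day 10 workers than in day 3 workers, HSALG011967.1 and HSALG003655.2 lower, with 1 day 3 worker at 948 CPM and 1 at 516 CPM.

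Set beside day 0, the medians of the called genes were farther from 0 at day 10 than at day 3. The comparisons with day 0 share the day 0 libraries, and each shares a worker group with the comparison of day 10 and day 3, so their values are given side by side only. The 905 higher genes had a median log2 fold change over day 0 of -0.05 at day 3 and 0.92 at day 10. The 901 lower genes had medians of 0.04 at day 3 and -0.59 at day 10. In the fit that leaves out day 3 worker library 4, the 426 higher genes had medians of -0.05 at day 3 and 0.98 at day 10, and the 413 lower genes 0.09 and -0.51. Ovary-enriched genes had medians over day 0 of -0.06 at day 3 and -0.49 at day 10, fat-body-enriched genes 0.32 and 0.82, and brain-enriched genes 0.17 and 0.72. These groups were chosen on the same day 0 ovaries. A fall of the first and a rise of the others over day 0 are thus in part built in. With day 3 worker library 4 left out the medians at day 3 and day 10 were -0.23 and -0.50 for ovary-enriched genes. They were 0.26 and 0.83 for fat-body-enriched and 0.13 and 0.73 for brain-enriched genes. Over all genes, 656 differed between day 3 workers and day 0 (7.17% of those tested) and 3976 between day 10 workers and day 0 (43.5%). The count for day 3 was 1167 without day 3 worker 4, 182, 392 and 201 without day 3 worker 1, 2 or 3, and 302 to 389 without any 1 of the 5 day 0 libraries. The day 10 count stayed between 2982 and 4610 when any 1 ovary library was left out.

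Gamergate ovaries, sequenced on the same pair of flow cells, offer a comparison in other libraries. They were all on lane 2 and the workers all on lane 1, so caste and lane go together. Over the 905 genes higher in day 10 workers, the median gamergate log2 fold change from day 3 to day 10 was -0.07. In gamergates 25 of these genes were higher (2.76%) and 17 lower (1.88%), against 2.37% and 1.79% of all genes tested. Over the 901 genes lower in day 10 workers the gamergate median was 0.10, with 24 higher (2.66%) and 7 lower (0.777%). In the fit that leaves out day 3 worker library 4, 20 of the 426 higher genes were higher and 21 lower in gamergates, and 18 of the 413 lower genes were higher and 17 lower, against 5.24% and 3.92% of all genes. In both fits these shares lay near those over all genes, except the 0.777%, which stood against 1.79% of all genes. As a share of the gamergate lists, 11.5% of the 217 genes higher in gamergates were also higher in workers, and 4.27% of the 164 lower genes were also lower in workers, against 9.89% and 9.85% of all genes. With day 3 worker library 4 left out these shares were 4.11% and 4.67%, against 4.58% and 4.44% of all genes.

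The gamergate comparison was itself moved by single libraries. Its count of 381 called genes (4.16%) was 1316 without day 10 gamergate 5, 122, 100, 175 and 127 without day 10 gamergates 1 to 4, and 945, 176, 67 and 103 without day 3 gamergates 1 to 4. It was 851 without day 3 worker 4, which is in neither gamergate group but enters the shared estimate of the spread. The cause of this move was not tested. With day 3 worker 4 and day 10 gamergate 5 both left out, 697 genes (7.52%) were higher and 557 (6.01%) lower in workers. Of those 697 genes 41 were higher and 93 lower in gamergates (5.88% and 13.3%), against 9.95% and 8.67% of all genes. Of the 557 genes 63 were higher (11.3%) and 44 lower (7.90%). The medians in gamergates were -0.24 and 0.05.

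Whether workers and gamergates changed differently was tested directly. The change in workers minus the change in gamergates was positive for 786 genes (8.59% of those tested) and negative for 1042 (11.4%), by the edgeR quasi-likelihood test. It was positive for 415 of the 905 genes higher in workers and negative for 522 of the 901 lower genes, but 489 and 379 of them did not pass. These genes were chosen on worker libraries that also enter that test, so their share is not separate evidence. In all 1828 genes (20%) passed, and 898 (9.66%) without day 3 worker 4, 1129 without day 10 worker 3, 1148 and 1078 without day 3 gamergate 3 or 4, and 2774 without day 10 gamergate 5. Ovary-enriched genes had a median of -0.48 in workers and 0.06 in gamergates, and the difference was positive for 15 and negative for 29 of 165. Fat-body-enriched genes had medians of 0.50 in workers and 0.31 in gamergates, with 22 positive and 24 negative of 271. For brain-enriched genes the medians were 0.69 in workers and 0.03 in gamergates, with 25 positive and 12 negative of 180. With day 3 worker 4 left out, the positive and negative numbers were 7 and 12 of 165 ovary-enriched genes. They were 11 and 7 of 281 fat-body-enriched and 13 and 3 of 197 brain-enriched genes. Over all 9297 genes of that fit, 427 were positive and 471 negative, or 9.66% together.

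**Figure D5:**
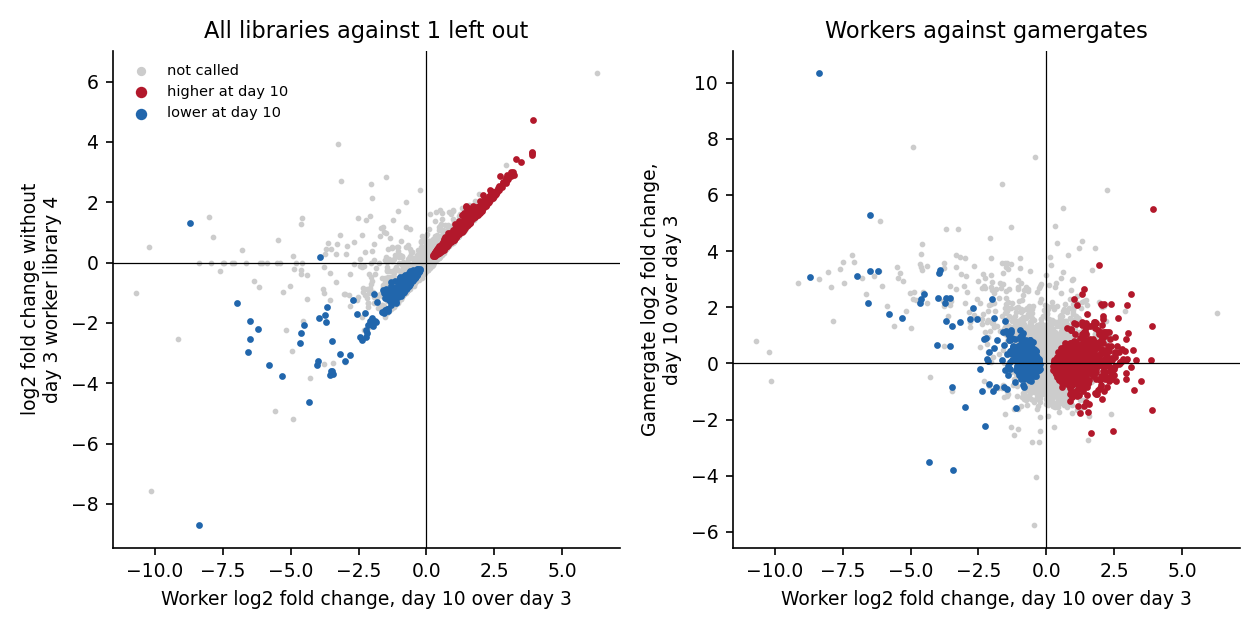
Log2 fold change from day 3 to day 10 in worker ovaries (x axis, all libraries) against the same without day 3 worker library 4 (left) and against that in gamergate ovaries (right); each point is 1 of 9150 genes, red and blue for those called higher (905) and lower (901) at day 10 in workers. On the left the red points lie near the diagonal and most of the strongest blue ones lie closer to 0, with HSALG011967.1 an exception, and on the right the coloured points spread on both sides of 0 in gamergates, with medians of -0.07 and 0.10.

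The other tissues of workers were compared on the same flow cells. Worker fat bodies had 269 genes called between day 10 and day 3 (3.39% of 7941), and 125, 148 and 419 without day 10 worker 1, 2 or 5, or 177, 139 and 137 without day 3 worker 1, 4 or 5. Worker brains had 1 called gene of 9886 (0.0101%). Of the 905 higher ovary genes 769 were tested in the fat body, with a median of 0.16, 28 higher and 12 lower. Over all genes tested in the fat body, 1.91% were higher and 1.47% lower. Of the 901 lower ovary genes 805 were tested there, with a median of -0.09, 6 lower and 11 higher. In the brain the medians were 0.07 over 828 and -0.03 over 839 of these genes, and 1 of them was called, higher. On genes called in the fat body without the library placed, day 10 worker fat bodies 1 to 5 had positions of 0.994, 0.964, 0.695, 0.681 and 0.553 between the day 3 mean and the day 10 mean, and day 3 worker fat bodies 1 to 5 had 0.210, 0.612, 0.184, -0.0135 and -0.227. The labels do not say whether ovary and fat body libraries of the same number came from 1 ant.

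The flow cell could be included only through the day 0 ovaries, of which 2 were on the day 10 flow cell and 3 on the day 3 flow cell. In these day 0 libraries, the day 10 flow cell minus the day 3 flow cell had a median log2 difference of 0.22 over the 905 higher genes, -0.03 over the 901 lower genes and 0.04 over all genes, and 68.1% of the called genes had the sign of their worker change. With flow cell as a term, edgeR called 1 gene, with 896 at an unadjusted p below 0.05. The median log2 fold change was then 0.69 for the higher and -0.58 for the lower genes, against 0.99 and -0.60 without the term. Of these genes 99.2% and 99.9% kept their direction, which their choice on the same libraries favours. The median standard error of the called genes was 0.338 with the term and 0.197 without it. The group medians with the term were -0.23 for ovary-enriched, 0.37 for fat-body-enriched and 0.36 for brain-enriched genes, against -0.48, 0.50 and 0.69 without it. The difference between the castes, in which a common effect of the flow cell drops out, was called for 1741 genes with that term. All day 3 and day 10 worker ovaries were on lane 1 and all gamergate ovaries on lane 2. An effect of a single lane of a flow cell therefore does not drop out of that difference. With flow cell and lane as a term of 4 levels, edgeR called 0 genes between day 10 and day 3 workers, with 337 at an unadjusted p below 0.05, and 0 for the difference between the castes. The median standard error was then 0.432. That term rests on 1 or 2 day 0 libraries per lane.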

How the data were processed

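Values in the deposited table are whole-number counts of reads for each gene, without normalization. Trimmomatic, STAR 2.5.3a and HTSeq are the tools named per the submitters' processing notes. Build, annotation and strand setting were not given in the sources used here, so overlapping genes and near-identical copies cannot be told apart. The 5 rows for reads assigned to no gene stayed out of library sizes and tests. The 25 ovary libraries were fitted with edgeR 4.0.16 in R 4.3.3: filterByExpr (minimum count 10, minimum total 15), TMM, 1 coefficient per group and the robust quasi-likelihood test. Adjusted p below 0.05 was the threshold. SE was obtained from the size of each log2 fold change and the root of its F value, and so restates the test. CPM uses TMM-scaled library sizes, and log2 CPM a prior count of 2. Fits and the permutation test were tested on simulated data. DESeq2 1.42.0 was an alternative. Printed genes have adjusted p below 0.05, more than 2-fold change, a mean of at least 10 CPM on the higher day and no overlap between days, by largest fold and by highest level, or by next fold where these are 1 gene (2 per direction). The comparison, gene groups and rules were chosen with earlier results of these data known.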

Additional observations from a re-analysis of the deposited data

Results flagged for a closer look

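Values far from the rest of their group of 5 were flagged where the gap to the nearest library exceeded Dixon's 95% limit, which chance passes in about 1 of 20 groups. Day 3 worker library 4 was such a value on principal component 1 (-53.9) and in its position between the day 3 and day 10 means (-0.253, against 0.246 to 0.419 in the other 4). The same library held the high value of HSALG003655.2 (516 CPM), and day 3 worker library 1 that of HSALG011967.1 (948 CPM). Among day 10 workers, library 1 had far more assigned reads than the others (3558381, against 737818 to 1327164), and library 5 the largest share in its most abundant gene (0.792%, against 0.552% to 0.579%).

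The change from day 3 to day 10 differed between workers and gamergates for 1828 genes by the edgeR test of that difference. HSALG011967.1 (worker minus gamergate -18.72 on the log2 scale) and HSALG003655.2 (-8.70) were among them. Each difference includes the day 3 worker library with the high value, and neither is given without it. For HSALG011967.1 the day 10 workers (at most 0.88 CPM) and the day 3 gamergates (at most 2.09 CPM) were near 0. The size of its difference is therefore not firm. The causes of these values were not tested.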

How the results depend on the processing

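Counts of called genes were compared within 1.5 times. In a fit of the groups compared alone, day 10 against day 3 gave 637 genes in worker ovary, 39 in worker fat body and 28 in worker brain, day 3 against day 0 gave 276, and 9 ovary-enriched genes were lower, 43 fat-body-enriched and 28 brain-enriched genes higher. RLE scaling gave 999 higher and 814 lower worker ovary genes. DESeq2 called 2173 genes for day 10 against day 3 in worker ovary (within 1.5 times), 1058 for day 3 against day 0, 726 in gamergate ovary, 484 in fat body and 3 in brain. Without a filter on low counts, the difference between castes gave 1206 genes, day 3 against day 0 307, and fat body 177. An adjusted p below 0.01 left 451 worker ovary genes, and more than 2-fold change 547. With enrichment set at a log2 fold above 2, 50 ovary-enriched genes were lower and 87 brain-enriched genes higher. With day 3 worker 4 and day 10 gamergate 5 left out (chosen after seeing the data), gamergate ovary gave 1725. With day 3 worker 4 and day 10 worker 5 left out (also chosen then), 42 ovary-enriched genes were lower.

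With flow cell as a term, worker ovary gave 1 gene, its 3 tissue-enriched groups 0 each, day 10 against day 0 1264, day 3 against day 0 213, gamergate ovary 2, fat body 1 and brain 0. With flow cell and lane, these were 0, 0 each, 0, 16, 0, 23 and 0, the difference between castes was 0, and the group medians were -0.11 (ovary-enriched) and 0.28 (brain-enriched). HSALG000764.2 reversed there (log2 fold change -0.26, edgeR adjusted p = 1.00). Median standard errors of the called genes were 0.338 and 0.432 with these terms, against 0.197 without, and the cause of the lost calls was not tested further.

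With any 1 library left out, counts ranged from 825 to 2780 in worker ovary, 898 to 2774 for the difference between castes, 182 to 1167 for day 3 against day 0, 67 to 1316 in gamergate ovary, 125 to 419 in fat body and 0 to 5 in brain. Ovary-enriched lower genes ranged from 14 to 57, fat-body-enriched higher genes from 41 to 101 and brain-enriched higher genes from 23 to 76. The group medians kept their sign in each of these fits (-0.58 to -0.33, 0.41 to 0.61 and 0.53 to 0.80).

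With the replicate number as a block, 1903 genes were called in worker ovary. Same-numbered day 10 and day 3 libraries correlated at 0.0695 to 0.182 in their deviations, below 0.1 for 1 of 5 pairs. Libraries of unlike number correlated at -0.366 to 0.405, and 2 of 5 day 10 libraries were closest to their own number. The numbers were not taken as pairs, although all 5 same-number values were positive. The block ended no call of the 4 named genes and moved no count by over 1.5 times. Depth limits the low genes: those at 0 to 3 reads in a group have no firm fold change.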
